A study of Mus musculus with 4 samples.

Results

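The tumour necrosis factor (TNF) ligand and receptor superfamilies were examined in cultured mouse T cells polarised with Tc1 or with Tc9 cytokines. Members were the probe sets whose platform annotation gave a symbol starting with Tnfsf or Tnfrsf, or Tnf, Lta, Ltb, Ltbr, Fas, Fasl, Cd27, Cd70, Cd40, Cd40lg or Eda2r. This gave 39 of 19505 measured genes, 15 ligands and 24 receptors, each with a single probe set. Cd27 is not analysed here. Total RNA of 2 Tc1 and 2 Tc9 samples, numbered 1 and 2 in each group, was hybridised to 4 Affymetrix arrays to ask how gene expression differs between these cells. Tc1 is the usual name of CD8 T cells polarised to produce interferon gamma, and Tc9 of those polarised to produce interleukin 9. Which cytokines were used, for how long, and the strain, age and organ of the donor mice are not stated in the sources used here. Nothing says that the samples are separate cultures or mice, so the p-values measure only the spread between these samples, which may be technical.

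TNF ligands are mostly membrane proteins that act as trimers, and some are shed as soluble cytokines. Their receptors bind TRAF adaptor proteins, which lead to NF-kappaB and MAP kinase signalling, or carry a death domain that can recruit the caspase machinery of cell death. In activated CD8 T cells the family supplies killing (Fas ligand and TRAIL), inflammatory cytokines (TNF and the lymphotoxins) and costimulation through receptors such as OX40, GITR, CD137 and TNFR2.

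The deposited values ran at a higher level on the arrays numbered 2 (medians 57.1 and 57.3) than on those numbered 1 (37.1 and 37.9), in both groups alike. Values below are therefore quantile normalized intensities, and differences are on the log2(value + 16) scale, where changes of dim genes come out too small. Many of the differences are also given within each number. Array signals differ in efficiency between probe sets, so levels of different genes are not compared. A signal was taken as above background where its deposited value exceeded the 95th percentile of the 5222 negative control probe sets on that array. That percentile lay between 123 and 218. T cell markers (5 of 5 measured) and the CD8 chains Cd8a and Cd8b1 were above it on all 4 arrays. Cd4 and the CD4 markers Zbtb7b and Cd40lg (the latter a member), Ikzf2 of regulatory T cells, 3 of 4 NK cell markers, all 6 myeloid and all 5 dendritic cell markers, and 4 of 5 B cell markers were below it on all 4. The remaining NK cell marker, Eomes, is also a CD8 T cell gene, and fell from 1053 and 1050.3 in Tc1 to 250.1 and 258 in Tc9 (limma adjusted p = 0.00364). The 4 measured NK cell markers, mostly Eomes, summed to 1115 and 1106 in Tc1 and 298 and 296 in Tc9. Their part in the differences of Fasl, Tnf, Tnfsf10 and the other members was not tested.

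Of the 39 members, 16 were above background on all 4 arrays, 8 on some, and 15 on none. In those 15 (38.5% of the members, against 60.2% of all genes) a change could not be measured reliably.

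Of the 24 receptors 2 passed the gene test, and of the 15 ligands 0 did. Tnfrsf26 and Tnfrsf1b, the gene of TNFR2, rose in Tc9 (limma, Benjamini-Hochberg adjustment over all genes, threshold 0.05). At an unadjusted p under 0.05 that fit held 2 ligands higher in Tc9 and 4 lower. These were 13.3% and 26.7% of the ligands, against 2.96% and 2.38% of all genes. With the block described below 2 and 5 ligands passed the adjusted threshold, or 13.3% and 33.3%, against 6.4% and 7.56% of all genes. The lower ligands include Fasl, which was at background on all 4 arrays. The count of members called higher was 2 of 39, or 5.13%, where 0.395% of all genes were called higher. The count of members called lower was 0, where 0.179% of all genes were called lower. Over all genes, the 77 higher and 35 lower calls became 13 and 3 without normalization between arrays. At an unadjusted p under 0.05 by limma, 7 members lay higher in Tc9 and 7 lay lower, against 2.96% and 2.38% of all genes. The groups did not overlap for 10 members higher in Tc9 and 14 lower, or 25.6% and 35.9% of the members. Among all genes these shares were 14.0% and 15.2%. The members are less often at background than genes at large, and the shares were not matched for this.

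With the replicate number as a block in limma, 9 members were higher and 11 lower (6.4% and 7.56% of all genes). That fit has 1 residual degree of freedom and gives all genes of like intensity the same spread. Its p-values therefore do not measure the spread of the gene itself. Without its intensity trend (this setting was added with the values already seen) 7 were higher and 6 lower (3.06% and 2.36% of all genes). The members that passed with the block only while it kept the trend were Tnfrsf10b (limma adjusted p without the trend 0.0575), Tnfrsf13c (0.0588), Fas (0.0787), Tnfrsf21 (0.0802), Ltb (0.109), Tnfsf14 (0.118) and Tnfrsf18 (0.337). In the same fit without the trend, Tnfrsf26 (0.000134), Tnfrsf1b (0.00186), Fasl (0.00366), Tnfsf10 (0.0113), Tnfsf8 (0.0155), Tnfrsf8 (0.0160) and Tnfrsf25 (0.0185) passed. So did Tnfrsf13b (0.0275), Lta (0.0297), Tnf (0.0336), Tnfrsf9 (0.0359), Tnfrsf23 (0.0441) and Tnfrsf14 (0.0470). The replicate number coincides with the shift in deposited level, so differences between cultures and differences in array processing cannot be told apart. Differences within number 1 and within number 2 had the same sign for 33 of 39 members (84.6%), against 62.1% of all genes. These shares too were not matched for the members being less often at background.

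**Figure D1:**
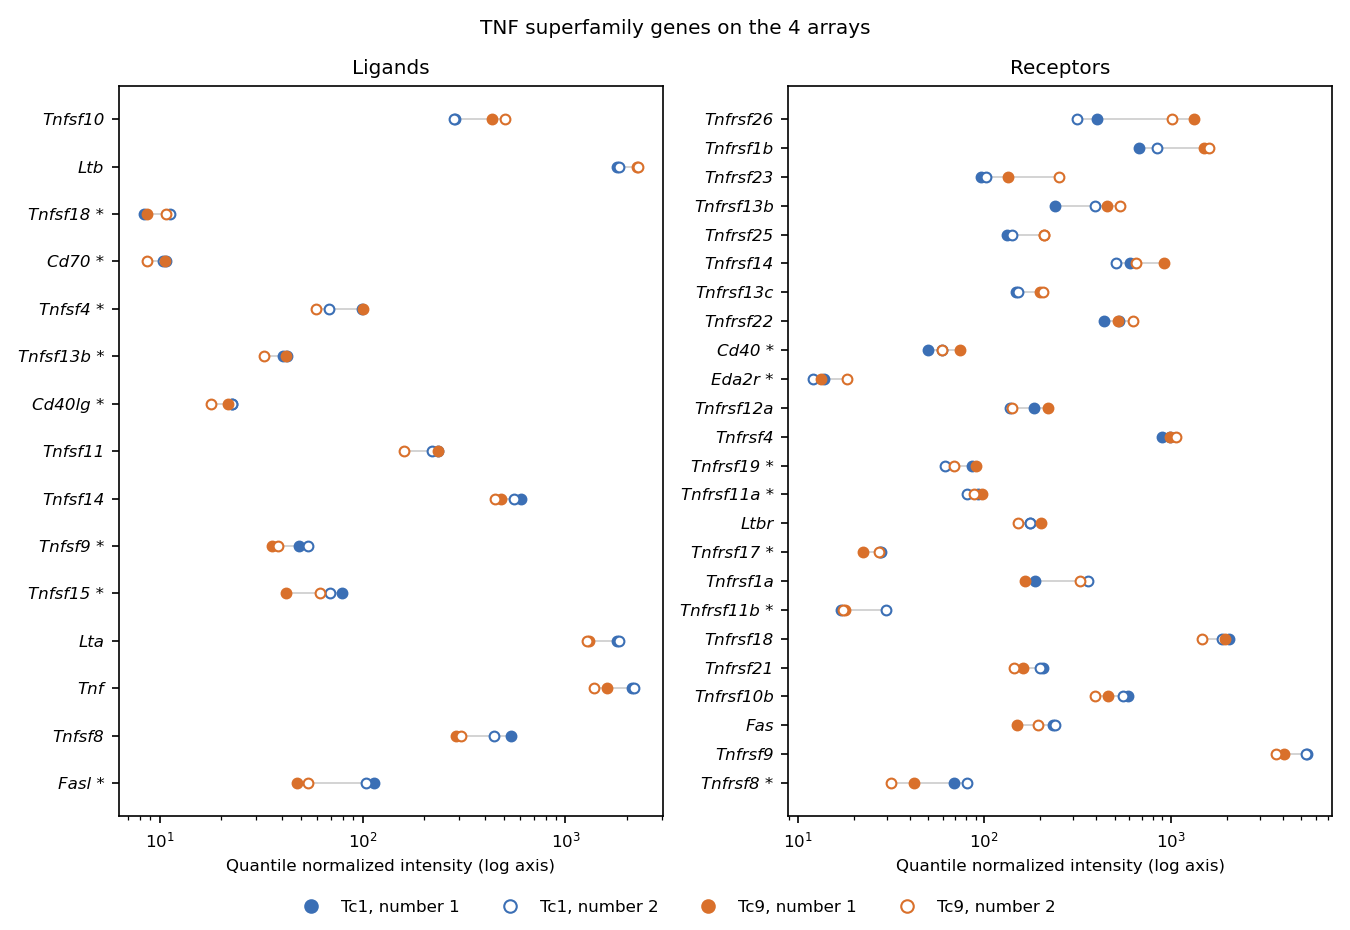
Quantile normalized intensity (log axis) of the 15 ligands and 24 receptors on the 4 arrays, with Tc1 in blue, Tc9 in orange, number 1 filled and number 2 open, and genes ordered by their change. An asterisk marks the 15 genes at background on all 4 arrays. The Tc9 arrays of Tnfrsf26 and Tnfrsf1b lie to the right of both Tc1 arrays, those of Tnf, Lta and Tnfrsf9 to the left.

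Ligand estimates were mostly negative, with small differences, and many came from genes at background. The log2 change was negative for 13 of 15 and positive for Ltb and Tnfsf10, where 49.2% of all genes were positive. The median over the ligands was -0.22 (-0.040 within number 1 and -0.26 within number 2), against -0.0030 over all genes. Without any 1 array it lay between -0.31 and -0.065, the value nearest 0 being that without the Tc9 array numbered 2. Of the 15, 8 were at background on all 4 arrays. Among the 7 above background on all 4 arrays, 5 changes were negative and 2 positive.

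Tnf, Lta and Ltb are neighbours in the class III region of the major histocompatibility complex, and differed in direction. Tnf encodes TNF, Lta the secreted lymphotoxin alpha, and Ltb the membrane chain with which lymphotoxin alpha forms a heterotrimer. The promoters of these 3 genes are printed because adjacent genes of a single locus had signals on opposite sides. They are the 250 bases before the annotated start, from RefSeq on GRCm38.p6, 5′ to 3′ on the strand of the gene. Capitals mark a match, on either strand, to a kappaB-type motif (GGG, any 2 bases, then TTNCC), an AP-1 motif (TGANTCA), a T-box motif (AGGTGTNA) or a TATA motif (TATAAA). The Ltb window lies at chr17:35194257-35194506 on the forward strand, Tnf at chr17:35202008-35202257 and Lta at chr17:35205352-35205601, both on the reverse strand.
Ltb: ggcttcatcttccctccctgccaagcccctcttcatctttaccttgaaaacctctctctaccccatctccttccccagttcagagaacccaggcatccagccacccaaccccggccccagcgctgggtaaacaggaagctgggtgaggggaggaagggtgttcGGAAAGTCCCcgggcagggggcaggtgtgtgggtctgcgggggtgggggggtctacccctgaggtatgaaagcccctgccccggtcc
Tnf: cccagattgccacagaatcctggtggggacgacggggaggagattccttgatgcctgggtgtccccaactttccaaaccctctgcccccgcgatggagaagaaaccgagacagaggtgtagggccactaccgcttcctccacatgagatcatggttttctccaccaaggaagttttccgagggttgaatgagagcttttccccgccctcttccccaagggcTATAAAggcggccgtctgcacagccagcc
Lta: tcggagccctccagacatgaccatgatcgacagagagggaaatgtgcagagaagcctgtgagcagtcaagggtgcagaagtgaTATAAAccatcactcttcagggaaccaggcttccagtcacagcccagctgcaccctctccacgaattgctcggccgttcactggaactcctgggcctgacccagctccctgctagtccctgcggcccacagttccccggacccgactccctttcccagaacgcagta
The Ltb window held a kappaB-type match on its reverse strand, 87 to 78 bases before the start. The Tnf and Lta windows each held a TATA match, which ended 24 bases before the start in Tnf and 162 bases before it in Lta. Among 32851 promoter windows of the same length, 4.11% held the kappaB-type letters, 6.75% the AP-1, 2.68% the T-box and 12.4% the TATA letters. Of 34 windows found for 30 of the members, 4 held the kappaB-type letters (Ltb, Tnfrsf13b, Tnfrsf25 and Tnfrsf9), 5 the AP-1, 0 the T-box and 7 the TATA letters. Matches of letters are a description and do not show binding.

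Tnf measured 2120.0 and 2182 on the Tc1 arrays numbered 1 and 2, and 1603 and 1385 on the Tc9 arrays. Both Tc9 signals lay below both Tc1 signals. The log2 change was -0.52 ± 0.13 (SE; -0.40 and -0.65 within the numbers; limma adjusted p = 0.273, with the block 1.58e-16).

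Lta measured 1799 and 1825 in Tc1 and 1303 and 1271 in Tc9, again without overlap. Its log2 change was -0.49 ± 0.12 (-0.46 and -0.52 within the numbers; limma adjusted p = 0.271, with the block 6.23e-13). Ltb had the opposite sign, at 1785 and 1825 in Tc1 and 2263 and 2272 in Tc9. Its log2 change was 0.33 ± 0.12 (0.34 and 0.31 within the numbers; limma adjusted p = 0.699, with the block 4.22e-07 and, with the block and no trend, 0.109). All 3 genes were above background on all 4 arrays, and each missed the threshold without the block.

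Among the death ligands, Tnfsf10, the gene of TRAIL, measured 287 and 282 in Tc1 and 433 and 502 in Tc9. The Tc9 signals were the higher on both numbers. Its log2 change was 0.68 ± 0.17 (0.57 and 0.80 within the numbers; limma adjusted p = 0.281, with the block 2.72e-09). Fasl, the gene of Fas ligand, measured 114 and 104 in Tc1 and 47.5 and 53.9 in Tc9, a log2 change of -0.91 ± 0.24 (-1.04 and -0.78 within the numbers; limma adjusted p = 0.324, with the block 2.18e-06). The Fasl groups did not overlap, but all 4 signals were at background, which leaves the size of this difference uncertain.

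Tnfsf8, the gene of CD30 ligand, measured 537 and 446 in Tc1 and 290 and 306 in Tc9. Both Tc9 signals were lower, with a log2 change of -0.69 ± 0.18 (-0.85 and -0.52 within the numbers; limma adjusted p = 0.294, with the block 9.06e-10). Tnfsf14, the gene of LIGHT, measured 604 and 560 in Tc1 and 480 and 448 in Tc9. The groups did not overlap, and the log2 change was -0.32 ± 0.15 (-0.32 and -0.31 within the numbers; limma adjusted p = 1.00, with the block 0.00638).

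Tnfsf11, the gene of the osteoclast factor RANKL, measured 236 and 220 in Tc1 and 235 and 160 in Tc9. These groups overlapped, and the 95% confidence interval of the log2 change ran from -0.77 to 0.34. The ligands below background on all 4 arrays, beside Fasl, were Cd40lg, Cd70, Tnfsf4, Tnfsf9, Tnfsf13b, Tnfsf15 and Tnfsf18. Among them are the ligands of CD40, CD27, OX40, CD137 and GITR, which are best known from antigen-presenting cells or, for CD40 ligand, from CD4 T cells. Cd70 measured 10.7 and 10.4 in Tc1 and 10.6 and 8.67 in Tc9, and Cd40lg 22.7 and 22.6 in Tc1 and 21.6 and 17.8 in Tc9.

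**Figure D2:**
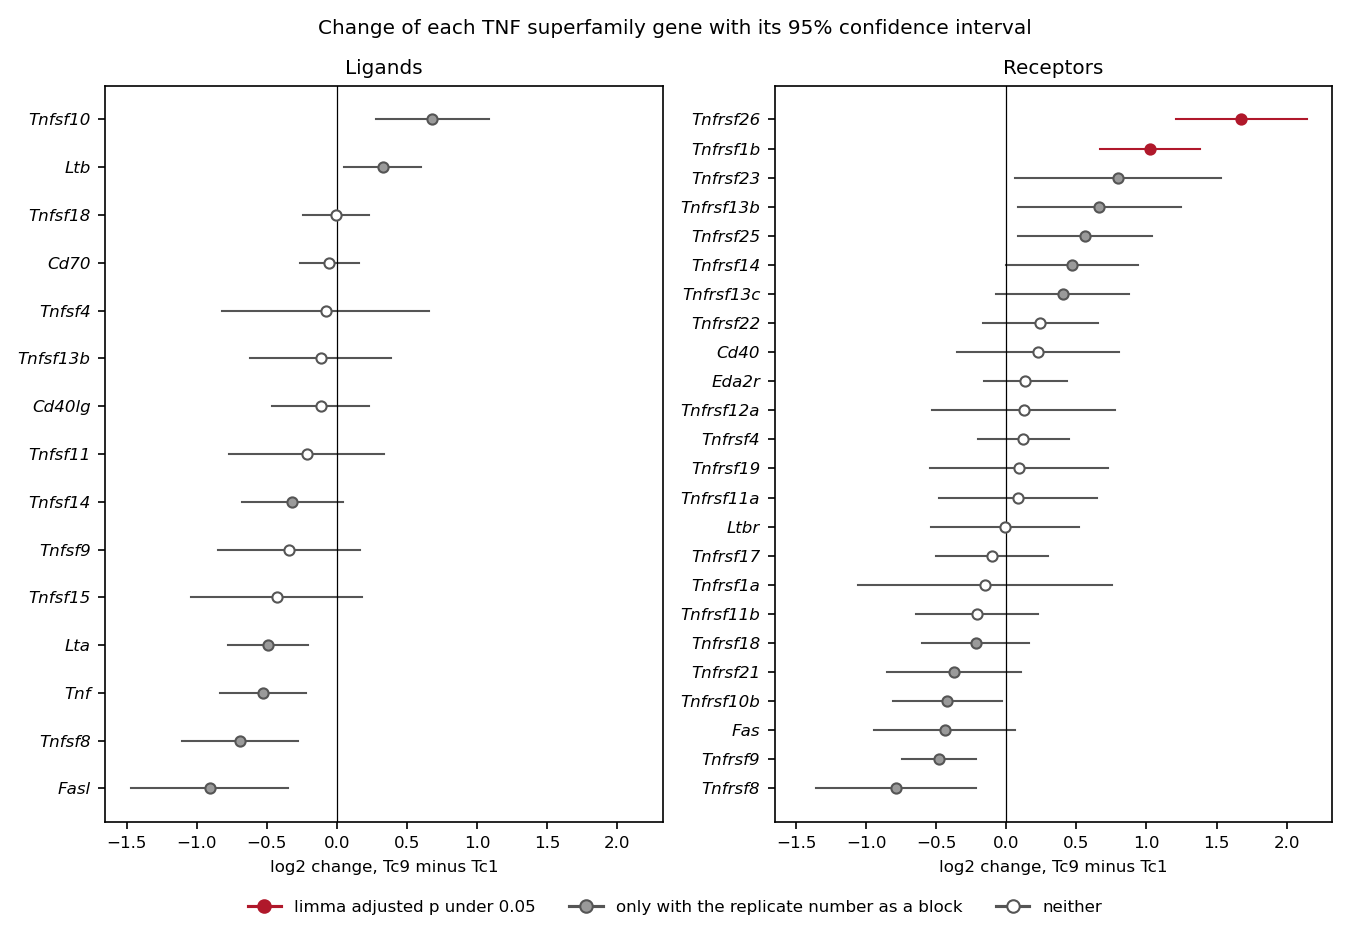
Log2 change (Tc9 minus Tc1) of each ligand and receptor with its 95% confidence interval from limma, in red where the adjusted p was under 0.05, filled grey where it was so only with the replicate number as a block, and open otherwise. Tnfrsf26 (1.68) and Tnfrsf1b (1.03) are the red points, and 13 of the 15 ligand points lie left of 0.

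Receptors were spread over both directions, with 14 of 24 log2 changes positive and a median of 0.11 (0.099 and 0.070 within the numbers). Their log2 changes ran from -0.78 for Tnfrsf8 to 1.68 for Tnfrsf26.

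Tnfrsf26 (Entrez Gene 244237) is a receptor of the mouse family encoded beside Tnfrsf22 and Tnfrsf23, which are decoy receptors for TRAIL that lack a death domain. Tnfrsf26 measured 401 and 313 on the Tc1 arrays numbered 1 and 2 and 1339.6 and 1020.1 on the Tc9 arrays. Both Tc9 signals were far above both Tc1 signals, and all 4 were above background. Its mean rose from 357 ± 62.5 (SD, n = 2) to 1179.9 ± 226, a 3.20-fold rise on the log2(value + 16) scale. The log2 change was 1.68 ± 0.20 (SE; 1.70 and 1.66 within the numbers; limma adjusted p = 0.0164, with the block 7.17e-83). On the deposited scale the call was lost (limma adjusted p = 1.00), as it was without the intensity trend (0.0745), at log2 changes of 1.68 in both.

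The neighbours of Tnfrsf26 were not called. Tnfrsf23 measured 96.5 and 102 in Tc1 and 133 and 252 in Tc9, above background on 1 array only (log2 change 0.80 ± 0.31; 0.41 and 1.18 within the numbers; limma adjusted p = 0.824, with the block 2.56e-06). Tnfrsf22 measured 441 and 526 in Tc1 and 525 and 626 in Tc9, with overlapping groups and a 95% confidence interval of the log2 change from -0.17 to 0.66. The sequences of these 3 genes are related, and cross-hybridisation between their probe sets was not tested.

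Tnfrsf1b (Entrez Gene 21938) encodes TNFR2, the TNF receptor without a death domain that is induced on activated T cells. It measured 681 and 842 in Tc1 and 1516 and 1602 in Tc9, with both Tc9 signals higher and all 4 above background. Its mean rose from 762 ± 114 (SD, n = 2) to 1559 ± 60.4, or 2.04-fold on that scale, with a log2 change of 1.03 ± 0.15 (1.14 and 0.91 within the numbers; limma adjusted p = 0.0456, with the block 1.05e-44). The call was close to the threshold. It was lost with a pseudocount of 64 (limma adjusted p = 0.0562), the robust variance model (0.0578), no intensity trend (0.142), median centring (0.347) and the values as deposited (1.00), with log2 changes of 0.98 to 1.03.

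Tnfrsf1a, the gene of TNFR1, the TNF receptor with a death domain, measured 188 and 362 in Tc1 and 165 and 327 in Tc9. Here the arrays sharing a number were alike and the groups overlapped. The log2 change was -0.15 ± 0.38, with a 95% confidence interval from -1.06 to 0.76.

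Tnfrsf1b lies beside Tnfrsf8, the gene of the lymphoid receptor CD30, on chromosome 4. Both windows are printed because these neighbours, transcribed from the same strand, had differences of opposite sign. Capitals mark the motifs named above, and both are on the reverse strand of GRCm38.p6, at chr4:145246871-145247120 and chr4:145315165-145315414.
Tnfrsf1b: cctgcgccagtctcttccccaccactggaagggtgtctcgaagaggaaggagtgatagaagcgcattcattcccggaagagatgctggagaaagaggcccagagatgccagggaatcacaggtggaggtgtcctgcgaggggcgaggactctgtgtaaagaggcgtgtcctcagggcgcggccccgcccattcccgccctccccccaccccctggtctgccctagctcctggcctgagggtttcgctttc
Tnfrsf8: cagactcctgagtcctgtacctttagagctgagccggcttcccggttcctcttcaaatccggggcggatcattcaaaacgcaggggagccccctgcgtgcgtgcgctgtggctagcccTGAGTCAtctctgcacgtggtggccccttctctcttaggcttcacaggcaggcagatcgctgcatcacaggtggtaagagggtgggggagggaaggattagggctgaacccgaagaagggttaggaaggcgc
The Tnfrsf1b window held none of the 4 motifs, and that of Tnfrsf8 held an AP-1 match 132 to 126 bases before the start. Tnfrsf8 measured 68.6 and 81.1 in Tc1 and 41.9 and 31.8 in Tc9, all at background. Its log2 change was -0.78 ± 0.24 (-0.55 and -1.02 within the numbers; limma adjusted p = 0.502, with the block 6.36e-05).

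The costimulatory receptors OX40, GITR and CD137 did not pass the test in either direction. Tnfrsf9, the gene of CD137, measured 5414 and 5340.5 in Tc1 and 4058 and 3665 in Tc9. Both Tc9 signals were lower, with a log2 change of -0.48 ± 0.11 (-0.41 and -0.54 within the numbers; limma adjusted p = 0.226, with the block 2.15e-25). Tnfrsf4, the gene of OX40, measured 903 and 994 in Tc1 and 992 and 1075 in Tc9, with overlapping groups and a 95% confidence interval of the log2 change from -0.20 to 0.45.

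Tnfrsf18, the gene of GITR, measured 2067 and 1897 in Tc1 and 1952 and 1480.0 in Tc9. These groups overlapped, and the log2 change was -0.22 ± 0.16 (-0.082 and -0.35 within the numbers; limma adjusted p = 1.00, with the block 0.00295 and, with the block and no trend, 0.337). Without the Tc9 array numbered 2 the change was -0.020, and without any other array -0.42 to -0.16.

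Tnfrsf14 and Ltbr, both receptors of LIGHT, did not pass the test. Tnfrsf14, the gene of HVEM, which binds LIGHT and the inhibitory receptor BTLA, measured 609 and 509 in Tc1 and 917 and 656 in Tc9. Both Tc9 signals were the higher, with a log2 change of 0.47 ± 0.20 (0.58 and 0.36 within the numbers; limma adjusted p = 0.950, with the block 9.72e-07). Without any 1 array that change lay between 0.23 and 0.70, the lower value without the Tc9 array numbered 1. Ltbr, the lymphotoxin beta receptor, best known from stromal and myeloid cells, measured 176 and 176 in Tc1 and 201 and 151 in Tc9, on both sides of Tc1.

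Among receptors with a death domain, Tnfrsf25, the gene of DR3, measured 133 and 142 in Tc1 and 210 and 210 in Tc9. Only the Tc9 signals were above background, and the log2 change was 0.56 ± 0.20 (0.60 and 0.52 within the numbers; limma adjusted p = 0.728, with the block 0.000795). Fas, the receptor of Fas ligand and above background on 3 arrays, measured 234 and 238 in Tc1 and 149 and 195 in Tc9, without overlap (log2 change -0.44 ± 0.21; -0.60 and -0.27 within the numbers; limma adjusted p = 1.00, with the block 0.00807). Tnfrsf10b, the mouse TRAIL receptor that signals death, measured 593 and 555 in Tc1 and 462 and 391 in Tc9.

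The Tnfrsf10b signals were all above background and lower on both Tc9 arrays, with a log2 change of -0.42 ± 0.16 (-0.35 and -0.49 within the numbers; limma adjusted p = 0.825, with the block 0.000142). Tnfrsf21, the gene of DR6, measured 206 and 199 in Tc1 and 161 and 145 in Tc9, above background on the Tc1 arrays only. Its adjusted p was 1.00 by limma and 0.0483 with the block.

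None of the 3 receptors of the B cell survival factors BAFF and APRIL passed the limma test, and their estimates differed in sign. Tnfrsf13b, the gene of TACI, measured 239 and 392 in Tc1 and 458 and 537 in Tc9. The groups did not overlap and all 4 signals were above background, with a log2 change of 0.66 ± 0.25 (0.89 and 0.44 within the numbers; limma adjusted p = 0.767, with the block 2.84e-09). Without any 1 array that change lay between 0.33 and 1.00, the lower value without the Tc1 array numbered 1. Tnfrsf13c, the gene of the BAFF receptor, measured 148 and 151 in Tc1 and 199 and 207 in Tc9 (limma adjusted p = 1.00, with the block 0.0272).

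The 5 measured B cell markers summed to 175 and 260 in Tc1 and 207 and 296 in Tc9 on the numbers 1 and 2. Cd79b alone of them was above background, on 1 array. Their part in the Tnfrsf13b and Tnfrsf13c differences was not tested. Tnfrsf17, the gene of BCMA of plasma cells, measured 28.0 and 27.5 in Tc1 and 22.3 and 27.3 in Tc9 (log2 change -0.10). It and Tnfsf13b, the gene of BAFF, were below background on all 4 arrays. So were the receptors Cd40, Eda2r, Tnfrsf8, Tnfrsf11a, Tnfrsf11b and Tnfrsf19, while Tnfrsf12a was above it on 2 arrays.

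**Figure D3:**
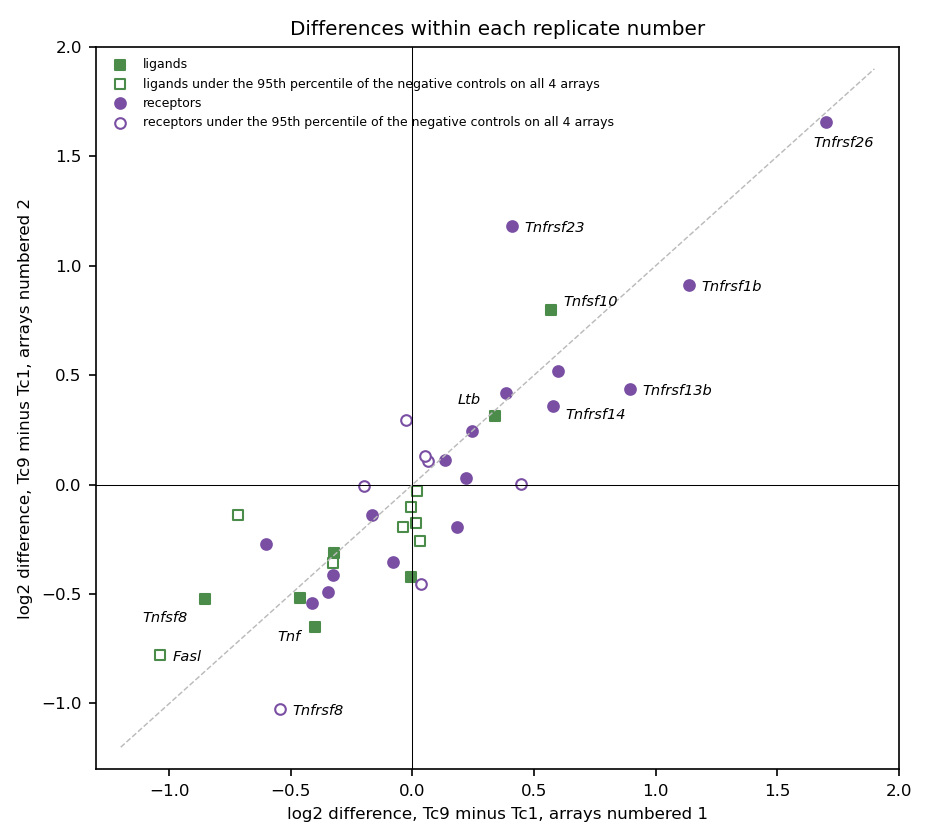
Log2 difference Tc9 minus Tc1 of each member on the arrays numbered 2 against those numbered 1, with ligands as squares, receptors as circles and open symbols for members at background on all 4 arrays. The dashed line marks equal differences. Tnfrsf26 (1.70 and 1.66) lies near the line, and Tnfrsf23 (0.41 and 1.18) and Tnfrsf8 (-0.55 and -1.02) differ more between the numbers.

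The log2 changes of some ligands, picked with the values known, stand here beside those of their receptors. For TNF, the ligand estimate was -0.52, that of TNFR2 1.03, a called rise, and that of TNFR1 -0.15. For TRAIL, the ligand estimate was 0.68, that of the death receptor Tnfrsf10b -0.42, and those of the decoys Tnfrsf22 and Tnfrsf23 0.24 and 0.80. For LIGHT, Tnfsf14 stood at -0.32, its receptor Tnfrsf14 at 0.47 and Ltbr at -0.0072. Without any 1 array the estimates of Tnfrsf1a (-0.61 to 0.31) and Ltbr (-0.20 to 0.18) changed sign, so the sign of these 2 was not determined.

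For Fas ligand and Fas, both estimates were negative, at -0.91 and -0.44. For CD30 ligand and CD30 they were -0.69 and -0.78, with the receptor and Fasl at background. For CD137 ligand (Tnfsf9, at background) and CD137 they were -0.34 and -0.48. Of these values only that of Tnfrsf1b passed the limma test without the block, and the differences between ligand and receptor were not tested.

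Below the receptors, 2 signalling genes passed the test. Of 35 listed adaptors, kinases, death proteins and NF-kappaB subunits, 31 were measured, and Traf3, Ripk1, Chuk and Nfkb1 are not analysed here. By limma 1 rose and 1 fell, 3.23% of the list each way, where 0.395% and 0.179% of all genes were called. At an unadjusted p under 0.05 there were 2 in each direction, or 6.45% each way against 2.96% and 2.38% of all genes. With the block 2 were higher and 3 lower, or 6.45% and 9.68%, near the 6.4% and 7.56% of all genes. The median log2 change was 0.013, against -0.0030 over all genes. Above background on all 4 arrays were 26 of the 31, against 6354 of all 19505 genes, and the shares above were not matched for this. Among the genes above background on all 4 arrays, 3.85% of the list and 1.05% of all genes were called, in either direction.

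Mlkl encodes the pore-forming executor of necroptosis, a form of death that TNF receptors can trigger. It measured 388 and 491 in Tc1 and 150 and 138 in Tc9, with both Tc9 signals at background. Its log2 change was -1.50 ± 0.20 (-1.29 and -1.72 within the numbers; limma adjusted p = 0.0276, with the block 7.40e-34), a fall whose size is uncertain because the Tc9 level is near background. The call was lost with median centring (limma adjusted p = 0.0922), without the intensity trend (0.0623) and with the values as deposited (1.00).

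Traf6, an adaptor of CD40, RANK and the interleukin 1 receptors, measured 651 and 658 in Tc1 and 1183 and 1315 in Tc9. It rose by a log2 change of 0.91 ± 0.14 (0.85 and 0.98 within the numbers; limma adjusted p = 0.0497, with the block 2.86e-31). The call stood at the threshold and was lost with the mean of probe sets (limma adjusted p = 0.0502), a pseudocount of 64 (0.0582), the robust variance model (0.0663), no intensity trend (0.124), median centring (0.420) and the values as deposited (1.00). Map3k14, the NIK kinase of the alternative NF-kappaB pathway, had a log2 change of 0.83 ± 0.14 (limma adjusted p = 0.0737, with the block 1.14e-22). Without any 1 array its log2 change lay between 0.76 and 0.89. With median centring its limma adjusted p was 0.476.

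Ripk3, the kinase that acts on MLKL, measured 657 and 597 in Tc1 and 584 and 625 in Tc9, with overlapping groups. Its 95% confidence interval ran from -0.41 to 0.30. Traf1, an adaptor bound by TNFR2 and CD137, measured 881 and 832 in Tc1 and 636 and 526 in Tc9 (log2 change -0.55 ± 0.16; limma adjusted p = 0.411, with the block 9.49e-10). Ripk3 and Traf1 were named after their values were seen.

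**Figure D4:**
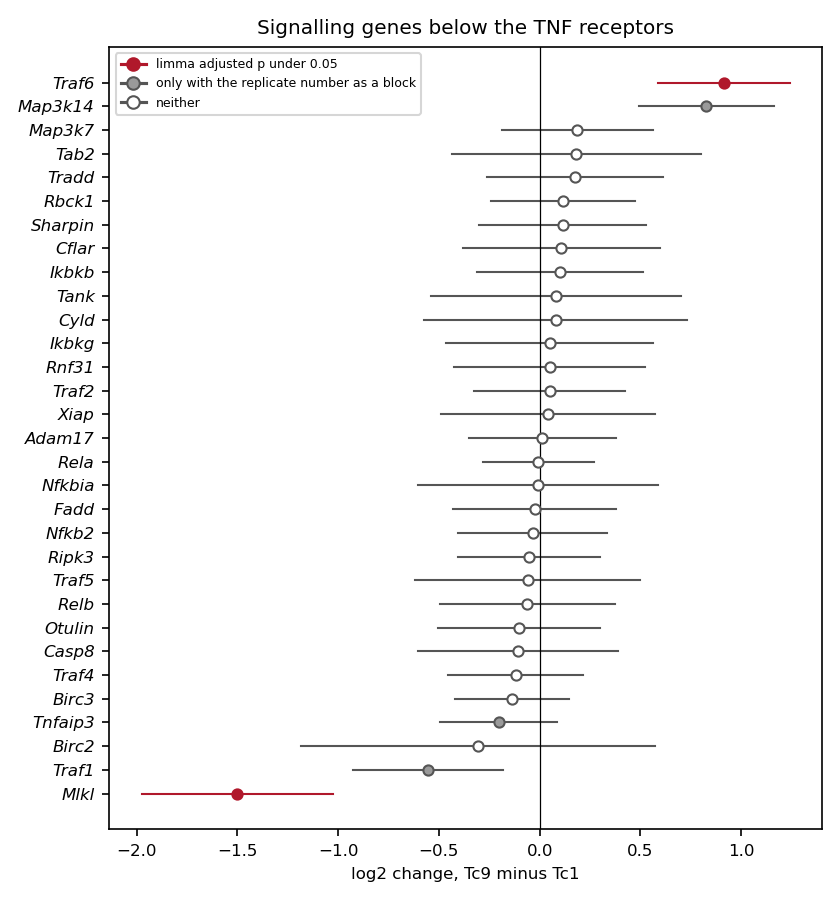
Log2 change (Tc9 minus Tc1) of the 31 measured signalling genes with 95% confidence intervals from limma, in red where the adjusted p was under 0.05, filled grey where it was so only with the replicate number as a block. Mlkl (-1.50) and Traf6 (0.91) are the red points, and the intervals of most others include 0.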

How the data were processed

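The authors deposited 1 intensity per probe set and array, on a linear scale read from the values. How they corrected, summarized or normalized it is not stated in the sources used here. RNA extraction with Trizol and a biotin label are stated per the labels' protocols. Values were written with more digits (median 10) on the number 1 arrays than on the number 2 arrays (median 7). Of 28846 probe sets, 6640 controls were left out, and 19572 of the others had 1 gene symbol, all matched to RefSeq by Entrez ID. Genes with several probe sets (55) kept the one with the highest mean. Intensities were quantile normalized over named probe sets, and log2(value + 16) was fitted over 19505 genes in R 4.3.3 with limma 3.58.1 (eBayes with an intensity trend, 2 residual and 5.11 prior degrees of freedom). The 95% intervals rest on this fit. It was also run on simulated data with independent noise on each array. That run held no effect shared by arrays of a number, so it does not cover such an effect. The small number of arrays limits the precision. Members, gene lists and alternatives were chosen with earlier results of these data known. Values were given on all arrays for members past the threshold, for other members above background in a group at an unadjusted p under 0.05, and for members chosen by function. Some further members and signalling genes (Tnfrsf8, Tnfrsf13c, Tnfrsf21, Tnfrsf22, Tnfrsf23, Ripk3 and Traf1) fall outside this rule and were added after their values were seen. Settings tried were 14 planned and 1 added alternative. The deviations of arrays sharing a number correlated across genes with r = 0.729.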

Additional observations from a re-analysis of the deposited data

How the results depend on the processing

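Against 2 members called higher in Tc9, limma called 0 with the values as deposited and 0 without the intensity trend, where 1 and 8 were higher at an unadjusted p under 0.05. It called 1 (Tnfrsf26) with median centring, a pseudocount of 64 or the robust variance model. With the replicate block it called 9, and 7 with the replicate block and no intensity trend, an alternative chosen after seeing the data. Against 0 members called lower, it called 11 and 6 in those fits with the block and 0 in the other fits on all 4 arrays. The calls over all 19505 genes moved too. Against 77 genes higher, there were 13 with the values as deposited and 42 without the intensity trend. Median centring gave 48, a pseudocount of 64 gave 63 and the robust model 77. With the block 1249 genes were higher and 1475 lower, and with the block and no trend 596 and 461, against 35 lower in the main fit.

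Against 2 signalling genes called, limma called 0 with the values as deposited, with median centring and without the trend (1, 4 and 4 at an unadjusted p under 0.05), 1 with a pseudocount of 64, the robust model or the mean of probe sets, and 5 and 4 with the replicate block with and without the trend. Without any 1 array the log2 changes were 1.48 to 1.87 for Tnfrsf26 and 0.88 to 1.18 for Tnfrsf1b. They were -1.66 to -1.34 for Mlkl and 0.84 to 0.99 for Traf6. Calls are not counted for these fits, which leave 1 array in a group.

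The receptors' median log2 change was 0.059 with a pseudocount of 64 and 0.059 to 0.14 without any 1 array, and the ligands' -0.31 to -0.065. In those fits the lone array of a group is assumed to vary like the other group. Signs were followed in these settings for 25 genes only. They are the members chosen by the rule stated above and the signalling genes Mlkl, Traf6 and Map3k14. Signs of the other members were not followed and may turn too. Among the 25, signs turned for Ltbr with the values as deposited (0.0078). Without any 1 array they turned for Ltbr (-0.20 to 0.18), Tnfrsf1a (-0.61 to 0.31), Tnfsf11 (-0.47 to 0.040) and Cd70 (-0.11 to 0.0012), none of them called. The causes were not tested. Filters on dim genes left dim members without a value. The labels do not say what a number stands for. Arrays sharing a number had a like deposited level, and their deviations correlated across genes (r = 0.729). Whether a number marks a shared culture or shared array processing cannot be told from these values.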
